A study of Mus musculus with 5 samples.

Results

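Transcripts of megakaryocytes and platelets were followed through 9 genes, Pf4, Ppbp, Itga2b, Gp9, Gp1ba, Gp1bb, Gp6, Treml1 and Vwf, taken by symbol from a table of 54113 named genes. The tumours were grown in C57BL/6 mice from MC38, a mouse colon adenocarcinoma line, and the mice were housed for 2 weeks at 30 °C, where a mouse need not produce extra heat (3 libraries), or at 4 °C (2 libraries). Both groups carried the same tumour line in the same strain, and the labels name no other agent or allele. The methods describe implantation under the skin and, before the exposure, a period of adaptation in the cool. Neither age nor sex is given in the labels. They do not tie each library to a single mouse either, though the paper calls the libraries biological samples. The edgeR p-values rest on the spread between these libraries, estimated with information from all tested genes, and not on a known number of mice. All 9 genes had more than 3 counts, the floor used here, in every library, and all 9 passed the filter on low counts that left 16133 genes for testing.

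Megakaryocytes are large polyploid cells that shed platelets, and in mice they sit in the bone marrow and in the red pulp of the spleen. Platelets have no nucleus and work with the RNA and granules they received from the megakaryocyte. Their glycoprotein Ib complex (Gp1ba, Gp1bb, Gp9 and Gp5) catches von Willebrand factor on a damaged vessel, glycoprotein VI (Gp6) senses collagen, the integrin of Itga2b and Itgb3 binds fibrinogen, and alpha granules release the chemokines Pf4 and Ppbp. In bulk tissue, fewer cells of a type and less RNA per cell cannot be told apart.

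Ppbp and Pf4 are neighbours on the plus strand of chromosome 5 of GRCm38, Ppbp from 90768518 to 90770063 and Pf4 from 90772435 to 90773383, with 2371 bases between them. Itga2b lies on chromosome 11 from 102453297 to 102470122, Gp1ba on the same chromosome from 70639122 to 70642036 and Gp1bb on chromosome 16 from 18620317 to 18622403. On chromosome 6 are Gp9, from 87778072 to 87779768, and Vwf, from 125546774 to 125686679. Gp6 spans 4363965 to 4397744 on chromosome 7 and Treml1 48359916 to 48367176 on chromosome 17. All 9 are annotated as protein-coding genes.

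The bases upstream of the start site are shown for the chemokine pair, for the glycoprotein Ib subunits Gp9 and Gp1ba and for Gp6, because megakaryocyte genes are known for promoters read by GATA and ETS factors. The 250 bases before each RefSeq start come from RefSeq (GRCm38.p6), written 5′ to 3′ on the strand of the gene. Capitals mark matches on either strand to the motifs of GATA factors (the letters AGATAA or else TGATAA), of ETS factors (the letters AGGAAG or else CGGAAG) and of NF-E2 and AP-1 (the letters TGAGTCA).
Ppbp, chr5:90768268-90768517, plus strand: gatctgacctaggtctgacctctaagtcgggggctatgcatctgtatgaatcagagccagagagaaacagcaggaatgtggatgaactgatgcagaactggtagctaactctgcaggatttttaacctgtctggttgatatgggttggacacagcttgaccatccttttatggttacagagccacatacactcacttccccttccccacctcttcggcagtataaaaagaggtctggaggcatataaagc
Pf4, chr5:90772185-90772434, plus strand: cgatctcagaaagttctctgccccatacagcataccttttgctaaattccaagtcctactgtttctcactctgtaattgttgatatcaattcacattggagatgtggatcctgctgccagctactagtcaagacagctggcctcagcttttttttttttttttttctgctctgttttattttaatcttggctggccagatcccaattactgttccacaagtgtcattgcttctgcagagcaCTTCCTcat
Gp9, chr6:87777820-87778069, plus strand: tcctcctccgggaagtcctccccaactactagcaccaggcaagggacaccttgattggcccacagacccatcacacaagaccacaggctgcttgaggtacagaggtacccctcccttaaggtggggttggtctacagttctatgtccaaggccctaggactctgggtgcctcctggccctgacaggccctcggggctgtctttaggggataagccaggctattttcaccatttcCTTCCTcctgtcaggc
Gp1ba, chr11:70638872-70639121, plus strand: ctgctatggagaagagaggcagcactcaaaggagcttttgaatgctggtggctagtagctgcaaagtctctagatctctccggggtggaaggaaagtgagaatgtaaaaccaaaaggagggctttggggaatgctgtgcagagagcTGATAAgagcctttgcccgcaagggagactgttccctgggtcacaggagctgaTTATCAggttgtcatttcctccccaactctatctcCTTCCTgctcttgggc
Gp6, chr7:4397745-4397994, minus strand: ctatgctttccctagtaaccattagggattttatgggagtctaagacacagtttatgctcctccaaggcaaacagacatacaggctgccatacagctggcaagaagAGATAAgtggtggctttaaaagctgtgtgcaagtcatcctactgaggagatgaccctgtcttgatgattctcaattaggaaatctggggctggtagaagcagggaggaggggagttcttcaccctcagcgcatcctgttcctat

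Of the 9 genes, 8 had an entry in the promoter table. An ETS match was held by 5 of these 8 (Pf4, Itga2b, Gp9, Gp1ba and Gp1bb), against 39.2% of all 32851 promoters of the same length, and a GATA match by 2 of 8 (Gp1ba and Gp6), against 16.6%. No match overlapped another. In Pf4, Gp9 and Gp1ba an ETS match began 9, 16 and 16 bases before the start. No TGAGTCA was found in the 8 windows, where 4.46% of all promoters held one. These matches describe letters in a window and are not binding sites.

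Named genes took 16191708 to 20320525 counts in a library. Pancreatic acinar transcripts, read from 24 genes, took 27.3% of the counts of 30 °C replicate 2 and at most 0.270% of any other library. Counts scaled to a library total of 1000000 (CPM) are therefore lowered in that library for genes outside this list (658 of the 16133 tested genes were still highest there), and TMM scaling, which evens out most genes, raises them again. In summed CPM, the 10 erythroid genes reached 3083 to 5138, the 10 B cell genes 1423 to 4286, the 10 genes of splenic mesenchyme and red pulp 1123 to 2521, the 12 endothelial genes 509 to 1026 and the 10 genes of mast cells and basophils 31.9 to 176. The 10 genes of epithelium and colon carcinoma, the labelled tissue, reached 20.6 to 126, and 7 of them had more than 3 counts in every library. How much of each library came from tumour and how much from spleen or other tissue was not tested, and megakaryocytes of the red pulp cannot be told apart from platelets in tumour vessels. The 9 megakaryocyte and platelet genes summed to 364 to 448 CPM.

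Temperature was first compared over the 9 genes together. None of them differed between 4 °C and 30 °C in the quasi-likelihood test of edgeR (adjusted p from 0.87 to 1.00), and the levels at the different temperatures overlapped for every one. The number past the threshold was 0 of 9 at an adjusted p under 0.05, where the background is 0% of all genes tested. It was also 0 of 9 at an unadjusted p under 0.05, where the background is 6.76%, and 0 of 8 with the Wald test of DESeq2, which gave Gp1bb no adjusted p, where it is 0.891% of the 12460 genes with one. Groups that did not overlap in TMM-scaled CPM were found in 0 of 9, against 23.3% of all genes. The log2 fold changes of 4 °C over 30 °C ran from −0.39 to 0.00, with a median of −0.11 beside 0.01 over all genes tested, and 8 of the 9 were below 0. Without 30 °C replicate 2 the median was 0.10, with 6 of the 9 above 0.

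**Figure D1:**
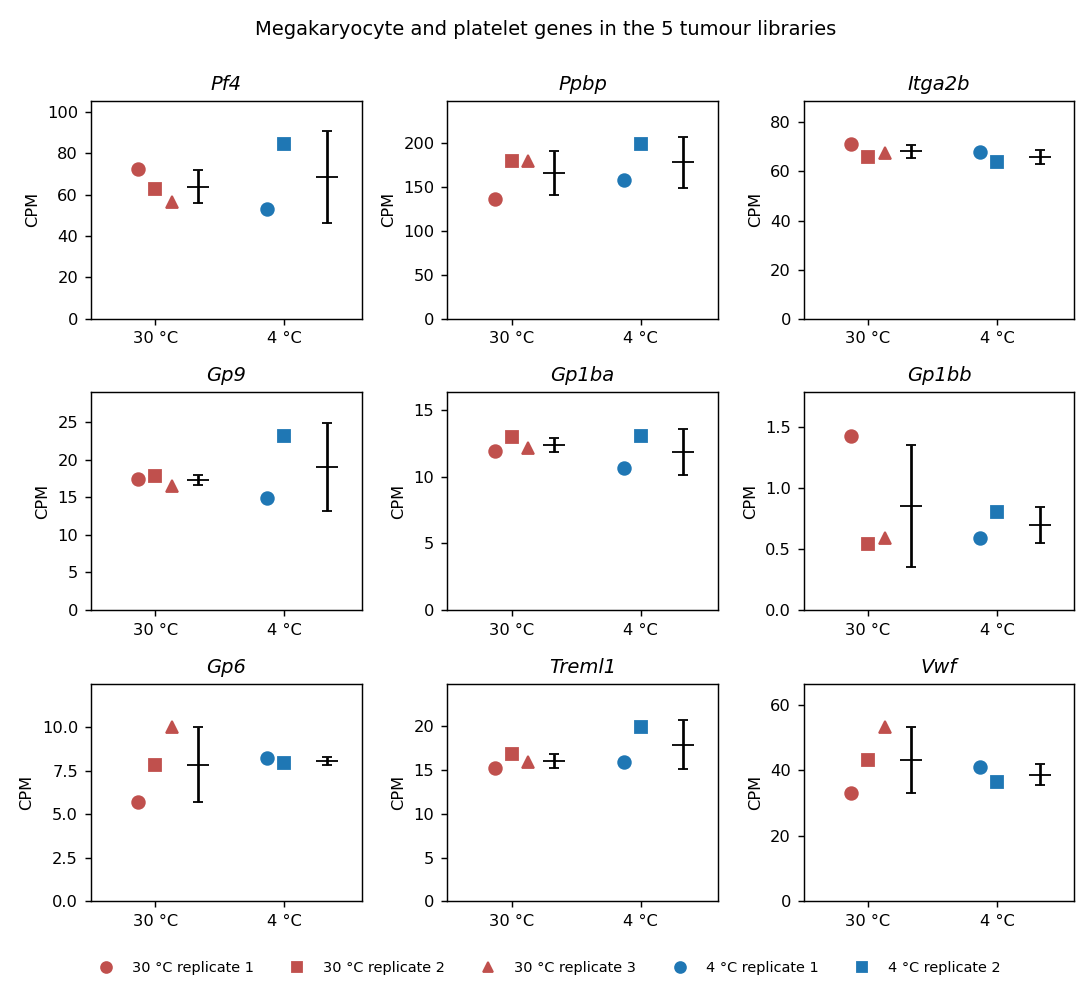
CPM of all counts for the 9 genes in each library, with 30 °C in red and 4 °C in blue; the bars to the right of the points give mean and SD (n = 3 and n = 2), and each axis starts at 0. The groups overlap in every panel, and Itga2b keeps between 63.9 and 71.0 CPM.

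The chemokines of the alpha granule had the highest levels of the 9 genes per kb of exon, while in CPM Itga2b lay near Pf4. Ppbp, which encodes pro-platelet basic protein, the precursor of a neutrophil-attracting chemokine, had 136, 179 and 180 CPM in the 30 °C libraries and 157 and 198 CPM in the 4 °C libraries. In CPM of all counts its highest and lowest values thus came from 4 °C replicate 2 and 30 °C replicate 1, and the groups overlapped. On the TMM scale the highest was 30 °C replicate 2, at 243 against 192 in 4 °C replicate 2. The log2 fold change of Ppbp was −0.06 (standard error 0.31, 95% interval −0.80 to 0.67, adjusted p = 0.98 from edgeR).

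Pf4, which encodes platelet factor 4, a heparin-binding chemokine, had 72.5, 62.9 and 56.4 CPM at 30 °C and 53.0 and 84.4 CPM at 4 °C. In CPM of all counts the lowest and the highest library were both at 4 °C. On the TMM scale the highest was 30 °C replicate 2, at 85.4 against 81.8 in 4 °C replicate 2. For Pf4 the log2 fold change was −0.05 (standard error 0.31, 95% interval −0.80 to 0.70, adjusted p = 0.98 from edgeR). In CPM per kb of exon, the ratio of Ppbp to Pf4 was lowest in 30 °C replicate 1 and at most 2.12 over the 5 libraries, with means of 1.76 at 30 °C and 1.77 at 4 °C, and Ppbp was above Pf4 in each library.

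Itga2b, which encodes the alpha chain of the fibrinogen receptor and is also carried by early blood progenitors, had the most even level. It stood at 71.0, 65.7 and 67.7 CPM in the 30 °C libraries and at 67.9 and 63.9 CPM in the 4 °C libraries. The highest library exceeded the lowest only 1.11-fold, where the median of this ratio was 1.55 over the 9 genes and 2.05 over the 16029 tested genes with a count in every library. On the TMM scale the level of Itga2b in 30 °C replicate 2 rose to 89.3, against 60.0 to 66.1 in the other 4 libraries, and the ratio of highest to lowest was 1.49, still the smallest of the 9 genes. Its log2 fold change was −0.20 (standard error 0.22, 95% interval −0.72 to 0.32, adjusted p = 0.89 from edgeR). The 9 genes of blood stem and progenitor cells summed to 109 to 160 CPM of all counts, lowest in 30 °C replicate 2. On the TMM scale their sum was 133, 148 and 142 at 30 °C and 148 and 115 at 4 °C, lowest in 4 °C replicate 2.

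Itgb3, which encodes the beta chain that pairs with Itga2b, had 76.8, 101 and 123 CPM at 30 °C and 98.5 and 75.7 CPM at 4 °C. The beta chain varied more between libraries than the alpha chain, 1.62-fold. In CPM per kb the ratio of Itga2b to Itgb3 was 0.596 to 1.00, lowest in 30 °C replicate 3 and highest in 30 °C replicate 1. Itgb3 did not pass the test either (log2 fold change −0.36 ± 0.30 SE, adjusted p = 0.86 from edgeR).

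In the glycoprotein Ib complex, Gp1ba encodes the chain that binds von Willebrand factor. Its level was 11.95, 13.003 and 12.20 CPM at 30 °C and 10.64 and 13.09 CPM at 4 °C, with the 30 °C libraries lying between the 4 °C libraries. Gp1ba had a log2 fold change of −0.22 (standard error 0.30, 95% interval −0.95 to 0.50, adjusted p = 0.91 from edgeR). Gp9, which encodes the small subunit glycoprotein IX, had 17.5, 17.8 and 16.6 CPM at 30 °C and 14.9 and 23.2 CPM at 4 °C. In CPM of all counts the 30 °C libraries here too fell between the 4 °C libraries. On the TMM scale 30 °C replicate 2 was highest for both genes, at 17.7 for Gp1ba and 24.2 for Gp9. The values in 4 °C replicate 2 were 12.7 and 22.5. The log2 fold change of Gp9 was −0.02 (standard error 0.32, 95% interval −0.79 to 0.75, adjusted p = 0.99 from edgeR). Gp5, the remaining subunit, ranged from 14.5 to 24.3 CPM, with a log2 fold change of 0.05 (± 0.35 SE, adjusted p = 0.98 from edgeR).

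Gp1bb, which encodes the beta chain that is disulfide-linked to Gp1ba, stood apart from its partners. Only 25, 9 and 12 reads were counted for it at 30 °C and 11 and 13 at 4 °C, against 198 to 248 for Gp1ba. The counting error was wide, from 0.925 to 2.11 CPM in 30 °C replicate 1 and from 0.249 to 1.03 CPM in 30 °C replicate 2 (exact 95% Poisson intervals, which cover counting error only). Per kb of exon, Gp1bb reached 0.0545 to 0.156 of the level of Gp1ba, whereas Gp9 reached 4.19 to 5.47 times that level. In GENCODE M21, 1938 of the 2087 exonic bases of Gp1bb (92.9%) also belong to exons of Sept5 or Gm49601 on the same strand, and no other member shares an exonic base with another gene. Gm49601 had 7 to 21 counts per library, and septin symbols, which the table holds as dates, were not assigned. How reads that fit several genes were counted is not given in the sources used here, so the level of Gp1bb is uncertain. Its log2 fold change was −0.39 (standard error 0.57, 95% interval −1.76 to 0.99, adjusted p = 0.92 from edgeR).

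Gp6, which encodes the collagen receptor of platelets, was at 5.72, 7.80 and 9.99 CPM at 30 °C and at 8.22 and 7.91 CPM at 4 °C. The 30 °C libraries spread over 1.75-fold and enclosed both 4 °C libraries. Its log2 fold change was −0.11 (standard error 0.34, 95% interval −0.93 to 0.71, adjusted p = 0.96 from edgeR). Fcer1g, the signalling chain that Gp6 shares with receptors of many myeloid cells, was far more abundant, at 89.9 to 299 CPM, and its ratio to Gp6 per kb varied between 77.8 and 353. The library with the highest Fcer1g, 30 °C replicate 1, was also the one with the highest sum of the 10 neutrophil genes, 13767 CPM, where the other 4 libraries held 2671 to 6349 CPM. The part of other myeloid cells in the Fcer1g level was not tested.

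Treml1, which encodes a receptor stored in alpha granules and brought to the surface of activated platelets, had 15.2, 16.8 and 15.9 CPM at 30 °C and 15.9 and 19.9 CPM at 4 °C. In CPM of all counts the highest value came from 4 °C replicate 2, and the other 4 libraries lay close together. On the TMM scale Treml1 was at 14.2, 22.8 and 14.1 at 30 °C and at 14.7 and 19.3 at 4 °C, highest in 30 °C replicate 2. The log2 fold change of Treml1 was 0.00 (standard error 0.29, 95% interval −0.70 to 0.70, adjusted p = 1.00 from edgeR).

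Vwf encodes von Willebrand factor, the ligand of the glycoprotein Ib complex, and is made by endothelial cells as well as megakaryocytes. It had 33.001, 43.1 and 53.1 CPM at 30 °C and 40.9 and 36.3 CPM at 4 °C, with both 4 °C libraries inside the range of the 30 °C libraries. The log2 fold change of Vwf was −0.31 (standard error 0.29, 95% interval −1.002 to 0.377, adjusted p = 0.87 from edgeR). The sum of the 12 endothelial genes was 680, 509 and 1026 CPM at 30 °C and 982 and 779 CPM at 4 °C. In CPM of all counts, Vwf and the endothelial sum were both highest in 30 °C replicate 3. They parted in 30 °C replicate 2, where the endothelial sum was lowest and Vwf was the next highest. On the TMM scale Vwf was highest in 30 °C replicate 2, at 58.5 against 47.2 in 30 °C replicate 3. The endothelial sum was then lowest in 30 °C replicate 1 (633, against 692 in 30 °C replicate 2). The share of Vwf that came from vessels was not tested.

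Levels were compared between genes per kb of exon. Ppbp came first with 157 ± 22.0 CPM per kb (SD, n = 5 libraries), followed by Pf4 with 91.3 ± 17.7 and Gp9 with 20.5 ± 3.54. Itga2b (12.3 ± 0.488) and Treml1 (11.9 ± 1.32) were neighbours whose ranges over the libraries overlapped, so their order is not settled beyond their spread. Gp1ba followed with 4.48 ± 0.365, Vwf with 2.57 ± 0.480, Gp6 with 1.34 ± 0.257 and Gp1bb with 0.379 ± 0.178. Between all other neighbours in this order the ranges did not overlap. The length counts each base found in any annotated exon of a gene, so it can exceed that of a single transcript. Whether the order holds with other lengths was not tested.

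**Figure D2:**
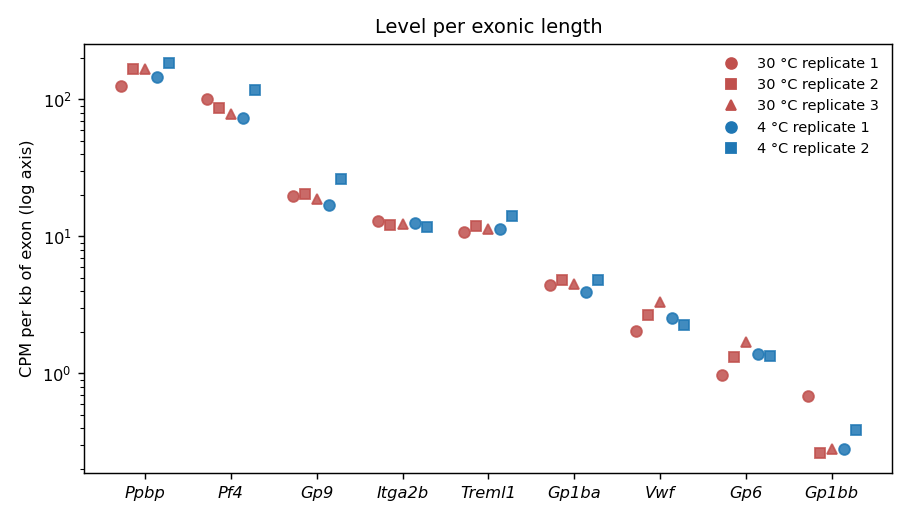
Level of the 9 genes in CPM per kb of exon on a log axis, ordered by the mean over 5 libraries. Ranges of neighbours overlap only for Itga2b and Treml1.

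The other genes of the lineage were read from 5 lists. Among 22 receptors and adhesion molecules of the platelet surface, 0 passed the adjusted threshold in either direction, and the median log2 fold change was 0.01, with 11 genes above 0 and 11 below. Tbxa2r, the thromboxane receptor, and Jam3 were higher at 4 °C and Selp lower at an unadjusted p under 0.05, where 2.58% of all genes were higher and 4.17% lower. Tbxa2r, also found on smooth muscle, had 12.4, 9.07 and 18.1 CPM at 30 °C and 24.1 and 21.9 CPM at 4 °C (log2 fold change 0.71 ± 0.22 SE, adjusted p = 0.69 from edgeR). Selp, which encodes P-selectin of alpha granules and of endothelium, had 7.72, 9.50 and 7.28 CPM at 30 °C and 3.92 and 5.19 CPM at 4 °C (log2 fold change −1.03 ± 0.40 SE, adjusted p = 0.72 from edgeR). For both genes the groups did not overlap. In TMM-scaled CPM such groups were found in 4 of the 22 genes on the higher side, beside 12.2% of all genes. On the lower side they were found in 2 of the 22, beside 11%. Jam3 shares 36.2% of its exonic bases with a gene on the opposite strand, Selp 14.1% and Tuba8, named further on, 16.3%, so without strand their reads cannot be told apart. The receptor Clec1b ranged from 18.2 to 34.5 CPM (log2 fold change 0.29, adjusted p = 0.88 from edgeR), the inhibitory receptor Mpig6b from 7.55 to 8.46 (−0.12, adjusted p = 0.95) and the ADP receptor P2ry12 from 12.7 to 22.0 (0.15, adjusted p = 0.89).

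Of 20 genes of granule contents and granule formation, 0 passed the adjusted threshold, 10 had a log2 fold change above 0 and 10 below. F5, which encodes coagulation factor V, and F13a1 were lower at an unadjusted p under 0.05, 2 of 20 beside 4.17% of all genes. In both, the groups did not overlap in TMM-scaled CPM. Such groups were found in 2 of the 20 genes on the lower side, beside 11% of all genes. On the higher side they were found in 2 of the 20, beside 12.2%. F13a1, the A chain of coagulation factor XIII, which macrophages also make, showed the widest gap, with 109, 73.8 and 39.3 CPM at 30 °C and 25.5 and 27.5 CPM at 4 °C. Both 4 °C libraries were below all 3 at 30 °C (log2 fold change −1.65 ± 0.48 SE, adjusted p = 0.69 from edgeR). With DESeq2 it was past the threshold (adjusted p = 0.043). F13a1 also passed with the replicate number as a block (adjusted p = 0.015 from edgeR). The labels do not show that libraries with the same number belong together. The library 30 °C replicate 3 has no partner at 4 °C and so does not inform the block comparison. At 39.3 CPM it was the 30 °C library nearest to the 4 °C libraries. No conclusion on F13a1 is drawn from the block result. Clu, a chaperone secreted by many cells, was the gene with the smallest p among those higher at 4 °C, with 444 to 486 CPM at 30 °C and 655 to 683 at 4 °C (log2 fold change 0.38, adjusted p = 0.82 from edgeR). In CPM of all counts the thrombospondin gene Thbs1 ranged from 102 to 242, with its extremes in different groups. On the TMM scale both extremes came from 4 °C libraries, at 94.0 and 226, beside 225 in 30 °C replicate 1. Its log2 fold change was −0.03 (adjusted p = 0.99 from edgeR). Rab27b, a GTPase of dense granules, ranged from 8.29 to 27.3 CPM (log2 fold change −0.57, adjusted p = 0.89 from edgeR). The highest Rab27b value came from 30 °C replicate 2, and without that library its log2 fold change was 0.24.

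The list of megakaryocyte transcription factors held 16 genes, of which 0 passed the adjusted threshold, 5 were above 0 and 11 below, with a median of −0.31. Several of these factors are shared with red cells. Tal1, a factor of both lineages, had 198, 161 and 139 CPM at 30 °C and 105 and 107 CPM at 4 °C (log2 fold change −0.81 ± 0.27 SE, adjusted p = 0.69 from edgeR), and with Gfi1b and Zfpm1 it made 3 of 16 genes that were lower at an unadjusted p under 0.05, beside 4.17% of all genes tested. Gata1 had 115, 70.0 and 73.4 CPM at 30 °C and 41.5 and 69.9 CPM at 4 °C (log2 fold change −0.74, adjusted p = 0.74 from edgeR), and Nfe2, the factor for platelet release, 188, 91.9 and 74.3 CPM and 71.6 and 89.2 CPM (−0.67, adjusted p = 0.81). Fli1, an ETS factor of megakaryocytes and endothelium, had a log2 fold change of 0.18 (adjusted p = 0.89 from edgeR), and the coactivator Mrtfa of 0.26 (adjusted p = 0.84). All 10 erythroid markers had more than 3 counts in every library, and their sum was 5138, 4180 and 3200 CPM at 30 °C and 3314 and 3083 CPM at 4 °C, with a median log2 fold change of −0.69. The part of erythroid cells in the levels of these factors was not tested.

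Among 26 genes of platelet signalling and thromboxane synthesis, 0 passed the adjusted threshold, and the median log2 fold change was 0.02. Lat, an adaptor of Gp6 signalling that T cells also need, had 35.3, 24.3 and 40.0 CPM at 30 °C. It had 55.2 and 65.2 CPM at 4 °C (log2 fold change 0.76 ± 0.17 SE, adjusted p = 0.69 from edgeR), and its groups did not overlap. In TMM-scaled CPM such groups were found in 5 of the 26 genes on the higher side, beside 12.2% of all genes. On the lower side they were found in 2 of the 26, beside 11%. The gene with the smallest p on the lower side was Gnaq, a G protein of thromboxane and ADP receptors (log2 fold change −0.25 ± 0.16 SE, adjusted p = 0.82 from edgeR). In the cytoskeleton list of 15 genes, 0 passed, 4 were above 0 and 11 below, with a median of −0.19. Myl9, a myosin light chain that smooth muscle shares, had 48.0, 39.7 and 58.3 CPM at 30 °C and 90.3 and 100 CPM at 4 °C (log2 fold change 0.85 ± 0.17 SE, adjusted p = 0.69 from edgeR), and it was called by DESeq2 (adjusted p = 0.019). Tuba8, an alpha-tubulin of platelets and other tissues, stood at 6.10 to 12.98 CPM at 30 °C and at 3.98 and 5.56 CPM at 4 °C (log2 fold change −0.98, adjusted p = 0.74 from edgeR). Tubb1, the beta-tubulin of the platelet marginal band, had 17.3, 33.8 and 37.3 CPM at 30 °C and 31.4 and 14.4 CPM at 4 °C (log2 fold change −0.56 ± 0.50 SE, adjusted p = 0.87 from edgeR). The log2 fold change of Tubb1 was −0.14 without 4 °C replicate 2 and −1.18 without 4 °C replicate 1. Its ratio to Itga2b per kb was 0.946 in 30 °C replicate 1 and 0.873 in 4 °C replicate 2, and 1.79 to 2.14 in the other 3 libraries, so these libraries were split across the temperatures.

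**Figure D3:**
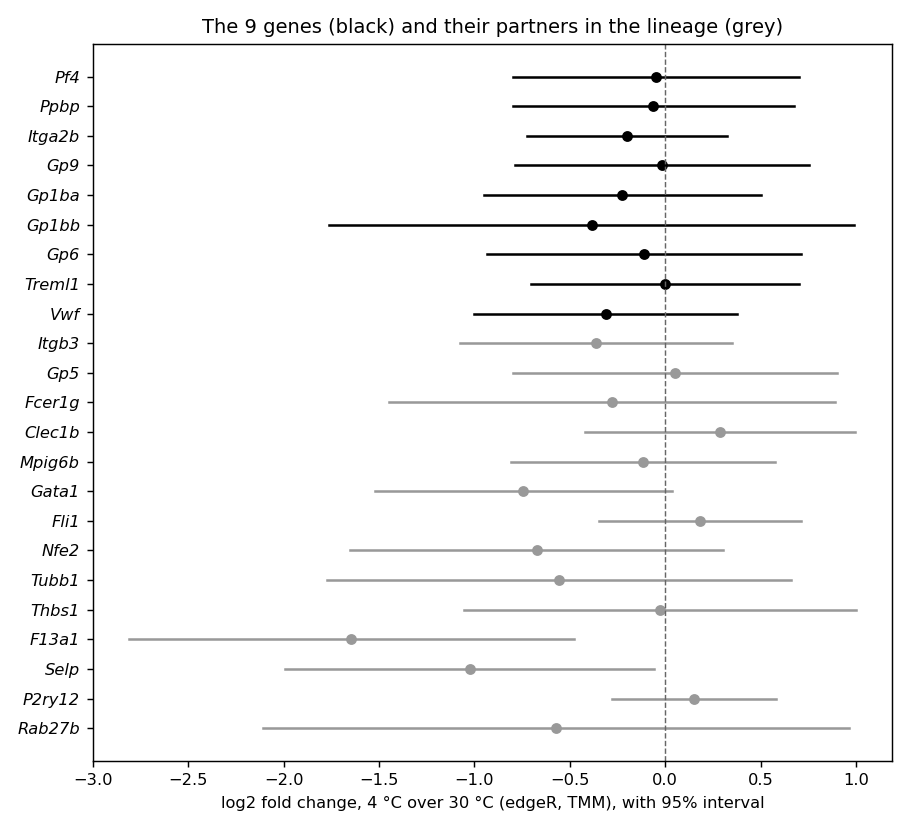
Log2 fold change of 4 °C over 30 °C with its 95% interval from edgeR, for the 9 genes (black) and 14 partners in the lineage (grey). All 9 black intervals cross 0, and in grey only those of F13a1 and Selp do not.

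The scale set how the 9 genes differed between libraries. In CPM of all counts, none was highest in 30 °C replicate 2 and 5 were highest in 4 °C replicate 2. In TMM-scaled CPM, 8 of the 9 were highest in 30 °C replicate 2, as were 3148 of the 16133 genes tested (19.5%), 11 of the 22 surface genes and 6 of the 10 erythroid markers. The exception was Gp1bb, the gene with few counts. The summed level of the 9 genes was 364, 407 and 412 CPM at 30 °C and 369 and 448 CPM at 4 °C. It was 364, 560 and 412 at 30 °C and 369 and 449 at 4 °C in CPM without the 24 acinar genes, and 339, 553 and 366 and 342 and 434 on the TMM scale. On each scale the 4 °C libraries lay within the range of the 30 °C libraries or 1 of them just above it. The difference of 4 °C minus 30 °C in the log2 sum was 0.05, −0.11 and −0.09 on these scales, so its sign depended on the scale. In CPM of all counts it was also below 0 without 30 °C replicate 1 (−0.01) and without 4 °C replicate 2 (−0.09).

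**Figure D4:**
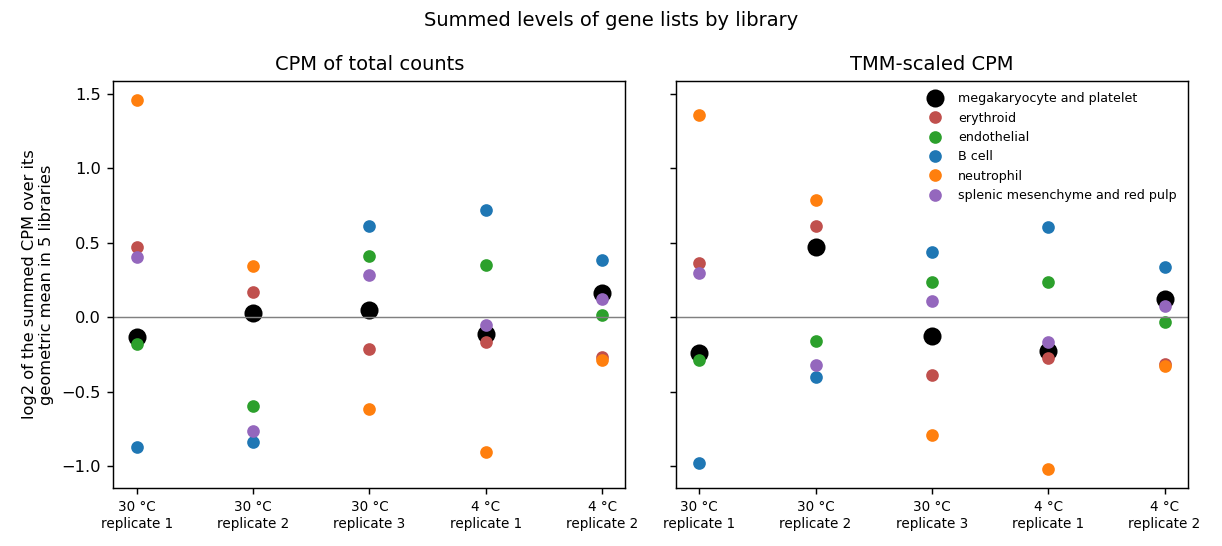
Summed CPM of 6 gene lists in each library, as log2 over the geometric mean of the 5 libraries, for CPM of all counts (left) and TMM-scaled CPM (right). The megakaryocyte and platelet sum (black) runs from 364 to 448 on the left and reaches 553 in 30 °C replicate 2 on the right, while the neutrophil sum runs from 2671 to 13767 on the left.

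Exonic length moved with the gap between the 4 °C libraries. Pf4 and Gp9, with 721 and 881 exonic bases, were higher in 4 °C replicate 2 than in 4 °C replicate 1 by 0.74 and 0.70 in log2 CPM on the TMM scale. Ppbp (1083 bases) and Treml1 (1402 bases) were higher by 0.40 and 0.39, and Gp1bb (2087 bases) and Gp1ba (2718 bases) by 0.44 and 0.36. Itga2b (5454 bases), Gp6 (5900 bases) and Vwf (16064 bases) differed by −0.02, 0.01 and −0.11. Over the 16023 tested genes with a length, the median difference was also higher for genes of shorter exonic length. It was 0.33 under 1 kb, 0.39 from 1 to 2 kb, 0.15 from 2 to 4 kb, −0.13 from 4 to 8 kb and −0.43 over 8 kb. The counts of the 4 members under 2 kb over those of the 3 members over 5 kb gave a ratio of 3.01 in 4 °C replicate 2 and of 2.05 to 2.37 in the other 4 libraries. When the trend with length was removed in each library, a setting chosen after seeing the data, the 9 log2 fold changes ran from −0.49 to −0.05, all below 0, with adjusted p from 0.82 to 0.98 in edgeR. Short Tubb1, with 1406 exonic bases, differed from this order, with a difference of −1.05 in log2 CPM. The cause of the length trend was not tested.

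**Figure D5:**
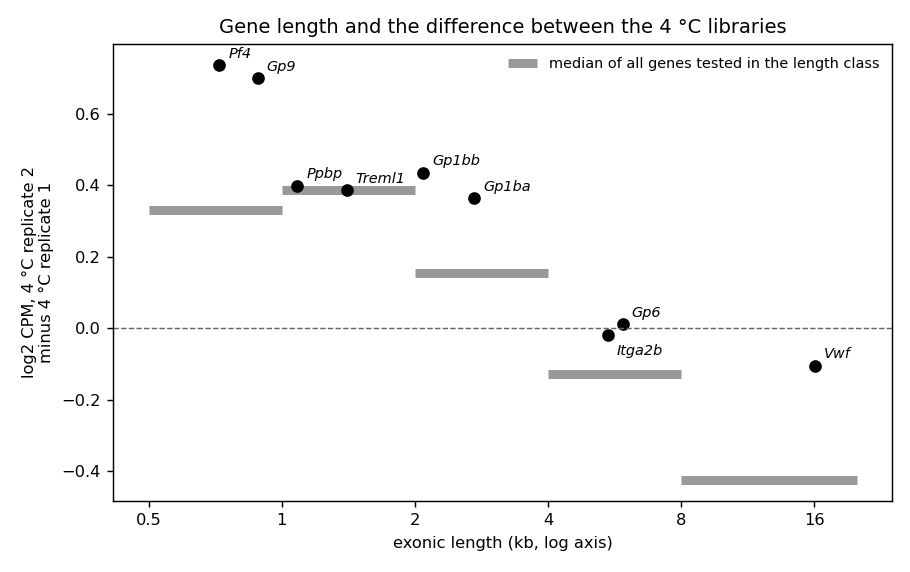
Difference in log2 CPM between the 4 °C libraries (replicate 2 minus replicate 1, TMM scale) against exonic length on a log axis; points are the 9 genes and grey bars the medians of all tested genes in each length class. Pf4 and Gp9 lie highest, at 0.74 and 0.70, and Vwf lowest, at −0.11.

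The genes whose pattern over the 5 libraries came nearest to the mean pattern of the 9 were Fbxo31, Gpc4, Rsph3b, Dtnb and Tram1, by the root mean square difference of centred log2 CPM on the TMM scale. Their distances were 0.027, 0.036, 0.037, 0.039 and 0.047 over 5 libraries. Those of the members ran from 0.065 for Gp1ba to 0.46 for Gp1bb. The 5 genes were picked as the nearest of all tested genes outside the members. Their smaller distances follow from that choice and say nothing about how alike the members are. In CPM of all counts these 5 genes varied little, from 1.14-fold for Fbxo31 to 1.23-fold for Dtnb between the highest and lowest library. Among the members, Gp6 (0.26) and Vwf (0.26) followed Gp1bb in distance from their common pattern.

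For single genes, the exact permutation test over the 10 splits of 3 against 2 libraries cannot give a two-sided p below 0.2, so it cannot reach 0.05. Applied to the mean log2 CPM of all counts, it gave p from 0.4 to 1 for the 9 genes.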

How the data were processed

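RNA of 5 samples labelled as tumour tissue was measured, 3 after 30 °C and 2 after 4 °C. The deposited values are raw counts per gene symbol. For its RNA-seq the paper names featureCounts on Gencode vM19, while the submitters' processing notes name fastp, HISAT, RSEM and GRCm38. Which of these tools gave the deposited counts is not settled by the sources used here. The strand setting and the counting of shared reads are not given there either. Of 54446 entries, 333 had no name and were left out (0.0101% to 0.0170% of the counts of a library), and of 97 repeated symbols the entry with the highest mean carried the symbol. Libraries held 16191708 to 20320525 counts, and the floor of 3 counts equals 0.148 to 0.185 CPM. Annotation came from GENCODE M21 (GRCm38), which matched all 213 genes of the lists, and promoters from RefSeq.

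Genes were filtered with filterByExpr, scaled by TMM and compared by the quasi-likelihood test of edgeR 4.0.16 in R 4.3.3 with robust estimation, with Benjamini-Hochberg adjustment over 16133 genes and a threshold of 0.05. Standard errors and 95% intervals were derived from the F statistic. Log2 CPM used a prior count of 2, and exact permutation tests used 10 splits. The alternatives were DESeq2 1.42.0, RLE and upper-quartile scaling, other filters, a block for the replicate number, estimation that was not robust, a table without acinar genes, each library left out and, added after seeing the data, a length trend removed by loess (span 0.5). The edgeR fit was also run on simulated counts with known changes. The TruSeq RNA kit was used, and the study's test was the Wald test of DESeq2.

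The members and lists were chosen with earlier results of these data known. Named were the 9 members, 14 partners whatever their values, in each of the 5 lists the gene with the smallest p in each direction, and the 5 nearest patterns. Entries with a date as symbol (27) stayed in the fit but were not assigned. Jam3, F5, Gfi1b and Zfpm1 were named after their values were seen. Of the genes chosen to be named, 1 is not reported here.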

Additional observations from a re-analysis of the deposited data

How the results depend on the processing

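The 9 megakaryocyte and platelet genes were called in none of the settings tried, 0 of 8 with DESeq2 and with at least 10 counts in every library, where Gp1bb had no adjusted p or no value, and 0 of 9 in the others. Over all genes, 111 (24 higher and 87 lower at 4 °C) were called with DESeq2 and 44 with the replicate number as a block (replicate block), against 0 in edgeR. Only 2 numbers occur at both temperatures, so 30 °C replicate 3 does not inform the block comparison. The shared numbers were not taken as pairs. Deviations of libraries with the same number correlated at −0.255 and 0.259, which cannot decide pairing. With 2 libraries at 4 °C, any 30 °C library correlates with them at equal and opposite values. The 4 °C minus 30 °C difference of the log2 summed level was −0.087 with TMM scaling, −0.11 without acinar counts and −0.092 to 0.18 with 1 library left out.

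The difference in mean log2 CPM, above 0 in CPM of all counts, was −0.060 and −0.079 for Pf4, −0.023 and −0.042 for Ppbp, −0.026 and −0.045 for Gp9 and −0.055 and −0.073 for Gp6 with TMM scaling and without acinar counts. Log2 fold changes turned with upper-quartile scaling for Pf4 (0.011), Gp9 (0.042) and Thbs1 (0.034), and with the block for Gp6 (0.024). For Treml1 they were −0.011 with DESeq2, −0.015 with RLE scaling, −0.016 with at least 10 counts in every library, −0.094 with the block and −0.16 with the length trend removed, a setting chosen after seeing the data, which also gave −0.070 for Gp5 and 0.052 for Thbs1. The cause was not tested.

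With 1 library left out, log2 fold changes ran from −0.48 to 0.28 for Pf4, −0.29 to 0.23 for Ppbp, −0.43 to 0.30 for Gp9, −0.44 to 0.027 for Gp1ba, −0.67 to 0.090 for Gp1bb, −0.35 to 0.097 for Gp6, −0.22 to 0.26 for Treml1, −0.17 to 0.41 for Gp5, −0.84 to 0.26 for Fcer1g, −0.23 to 0.087 for Mpig6b, −0.81 to 0.47 for Thbs1, −0.96 to 0.24 for Rab27b, −1.18 to −0.14 for Tubb1, −0.31 to 0.032 for Fbxo31, −0.24 to 0.090 for Gpc4, −0.35 to 0.036 for Rsph3b, −0.39 to 0.056 for Dtnb and −0.23 to 0.070 for Tram1. Leaving out a 4 °C library leaves 1, which is assumed to vary like the others. Of 503 values for the named genes, 460 kept direction and side of the threshold, 3 passed it and 40 turned.

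With 3 against 2 libraries the 95% intervals of the 9 genes were wide, and differences inside them could not be detected.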
